A study of Mus musculus with 59 samples.

Results

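The remote myocardium of mouse hearts 1 week after myocardial infarction was compared with the matching tissue of sham-operated hearts, across all genes of an Affymetrix oligonucleotide array. The remote group was the 3 arrays of non-infarcted left ventricle, cut from above the infarct (arrays nilv_662, nilv_663 and nilv_670, named here by the region and number in their titles). The sham upper group was the 3 arrays of tissue from the corresponding place, above the left anterior descending (LAD) coronary artery, of mice that had the operation without an infarct (arrays lv_651, lv_672 and lv_674). These 6 arrays were chosen by their titles, out of 59 in the series. The series also holds infarcted and sham lower tissue, and the times 1 h, 4 h, 24 h, 48 h and 8 weeks. At 1 week there were 3 infarct arrays, with the same numbers as the remote arrays, and 1 sham lower array. Infarct and remote arrays with the same number were taken as pieces of 1 mouse, which the labels do not state. The labels name neither a genotype nor a drug for any of these groups, and strain, sex and age are not stated in them. Nothing beyond the title number says that the arrays of a group are separate mice, so the p values rest on the spread between arrays. For each gene that spread was estimated over all 59 arrays within their groups, and not from these 6 alone.

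After an infarct, the surviving heart muscle carries the load of the lost muscle. Its cardiomyocytes are known to enlarge, to switch on natriuretic peptide genes and to use less fatty acid. Fibroblasts in the tissue can turn into matrix-secreting myofibroblasts, and macrophages enter, clear debris and release signals that act on fibroblasts.

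Intensities of the 6 arrays were scaled alike by the authors, with medians from 156.9 to 194.9, and 6670 genes were bright enough to be tested. Levels are given as these intensities, which have no physical unit, with arrays in the order named above, and changes as log2 differences with their standard error (SE). Across all genes the log2 intensities of remote arrays correlated with each other at 0.957 to 0.970, those of sham arrays at 0.981 to 0.986, and remote with sham arrays at 0.876 to 0.932. The remote arrays thus lay farther apart than the sham arrays. Remote array nilv_670 correlated with the infarct arrays of 1 week at 0.91 to 0.955, and with sham arrays at 0.876 to 0.887. Its correlations with the other remote arrays were 0.957 and 0.959. Those other remote arrays correlated with the infarct arrays at 0.839 to 0.918, and with sham arrays at 0.913 to 0.932. Why nilv_670 lay nearer to infarct tissue was not tested. Remote array nilv_670 lay farthest from sham in 886 of the 1379 genes that rose (64.2%) and in 684 of the 1179 that fell (58.0%). Without it, 1095 genes rose and 975 fell. The 3' to 5' signal ratio of Gapdh, a measure of RNA integrity, was 0.880, 0.856 and 0.877 on remote arrays and 0.838, 0.868 and 0.878 on sham arrays (exact two-sided permutation p = 0.6). That of beta-actin was 1.22, 1.20 and 1.28 on remote arrays and 1.76, 1.33 and 1.30 on sham arrays (exact p = 0.1, the smallest that 3 against 3 arrays can give).

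Markers of ventricular cardiomyocytes were present in both groups, with all 12 on the array above the filter level of 108.2 on at least 1 array of each group. Among them was Myh6, the alpha heavy chain of cardiac myosin, with 22083, 18540 and 16398 on remote arrays against 27851, 26872 and 25102 on sham arrays. The summed signal of these 12 markers was 183248, 176977 and 143971 on remote arrays, and between 213020 and 242408 on sham arrays. The sum was lower on every remote array. Singly, 3 of the 12 fell (Ryr2, Ckm and Cox8b) and 9 did not pass, where 17.7% of all genes tested fell. With only the remote and sham groups of 1 week in the fit, 6 of the 12 fell, where 901 of all 6670 genes did. In bulk tissue, fewer cells of a type and less RNA per cell cannot be told apart.

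At 1 week, 2558 of the 6670 genes passed the test (limma, Benjamini-Hochberg adjusted p under 0.05), which is 38.4% of the genes tested. They were split into 1379 that rose in remote tissue (20.7%) and 1179 that fell (17.7%). At least 2-fold rises were found for 495 genes (7.42%) and at least 2-fold falls for 162 (2.43%). The remote and sham arrays did not overlap for 3205 genes (48.1%). For genes that are dim in sham tissue the size of a rise depends on the offset added before the logarithm: Saa3, at 4.68, gave 3.30 with the largest offset tried and 5.69 with the smallest. The median over all genes was 0.052, and under quantile normalization -0.055. That scaling gave 1108 rises and 1352 falls, so the balance of rises and falls depended on it.

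**Figure D1:**
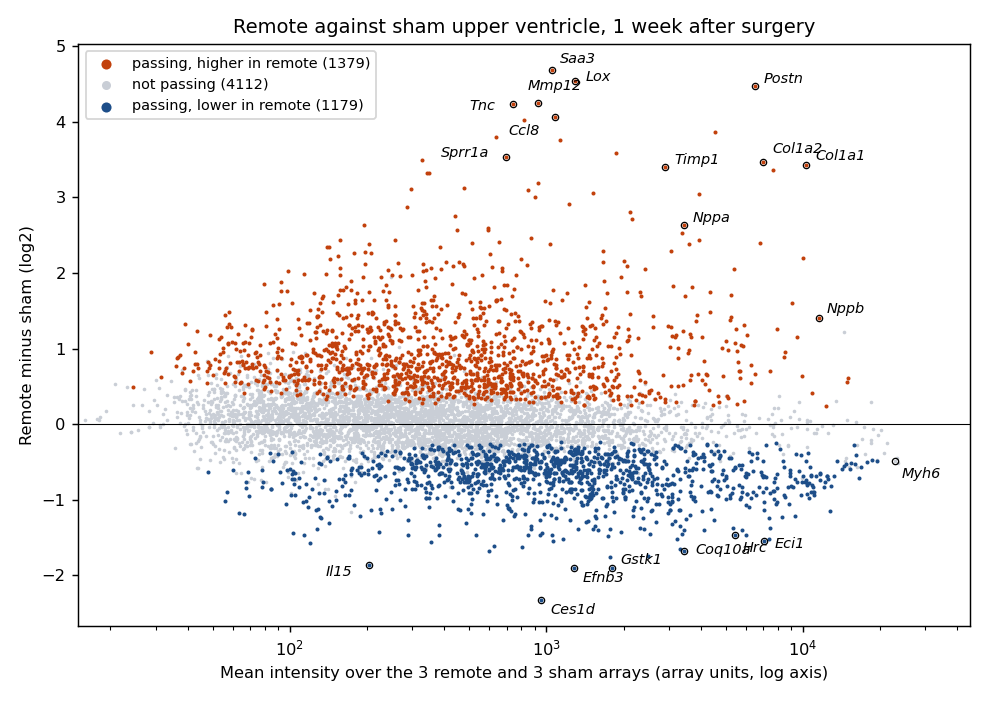
Difference between remote and sham tissue at 1 week (log2, vertical axis) against the mean intensity of the 6 arrays (horizontal log axis), 1 point per gene. The 1379 genes that rose are red, the 1179 that fell are blue, and the rest are grey; the highest points are Saa3, Lox and Postn, and the lowest is Ces1d.

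Matrix genes were among the largest rises. Of 22 measured genes for fibrillar collagens and their crosslinking, 19 rose and the other 3 (Col12a1, P4ha1 and P4ha2) did not pass; the list median was 1.87, against 0.052 over all genes. Of 27 genes for matricellular and other matrix glycoproteins, 21 rose and 2 fell (Ltbp1 and Vtn), with a median of 1.44; 1 fall was left without remote array nilv_663 or sham array lv_672 or lv_674. Of 16 basement membrane genes 10 rose and 1 (Lamb3) fell, with a median of 0.61; Lamb3 did not pass without remote array nilv_662 or nilv_663 or sham array lv_651 or lv_674.

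Postn, which encodes periostin, a matricellular protein made by activated fibroblasts, had 11317, 12962 and 13152 on remote arrays, against 479.9, 439.4 and 654.6 on sham arrays. Its level was thus more than an order of magnitude higher on every remote array (log2 4.47, SE 0.28, adjusted p = 2.1e-15). The 2 chains of type I collagen, the main fibre of scar, both rose. Col1a1 had 17665, 19962 and 18720 in remote tissue, against 1263, 1485 and 2599 in sham tissue (log2 3.43, SE 0.36, adjusted p = 1.8e-09). Col1a2 had 10945, 12845 and 14771 in remote tissue, against 978.4, 1028 and 1348 in sham tissue (log2 3.47, SE 0.32). Another probe set of Col1a2 gave -0.03 (adjusted p = 0.93), and that of Col1a1 gave 1.26 (adjusted p = 2e-06). Col3a1, the chain of type III collagen, averaged 13889 ± 1309 in remote tissue and 1380 ± 566 in sham tissue (SD, n = 3 each; log2 3.36, with 4.48 and 2.63 by its other probe sets).

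Minor fibre-forming chains followed. Col5a2, which helps set the width of collagen fibrils, rose by 3.87 and Col11a1, best known from cartilage, by 3.80. Col8a1, a short-chain collagen of vessels and activated fibroblasts, had 2490, 3406 and 4567 in remote tissue, against 257.5, 171.3 and 307.1 in sham tissue. The type VI chains Col6a1, Col6a2 and Col6a3 rose by 1.69, 2.05 and 2.29. Lox, the enzyme that crosslinks collagen and elastin, had 1994, 2131 and 3455 in remote tissue, against 46.3, 63.5 and 77.9 in sham tissue (log2 4.54, SE 0.40, adjusted p = 3.6e-11). A further Lox probe set, near background in both groups, gave -0.17 (adjusted p = 0.71), so the rise of Lox rests on 1 of its 2 probe sets. Bmp1 and Pcolce, a protease that trims procollagen and its enhancer, rose by 1.65 and 1.12. The collagen chaperone Serpinh1 rose by 0.66.

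Of the glycoproteins, Tnc, the adhesion-modulating tenascin C, had 1049, 1580 and 1709 in remote tissue, against 48.2, 38.3 and 14.6 in sham tissue (log2 4.23, SE 0.36). Ccn2, or connective tissue growth factor, averaged 11416 ± 1242 in remote tissue and 2160 ± 541 in sham tissue (log2 2.40, adjusted p = 2.2e-09). Fn1, the gene for fibronectin, averaged 1522 ± 215 and 462.0 ± 63.7 in remote and sham tissue (log2 1.63). Eln, the gene for elastin, rose by 2.38, and the microfibril-associated genes Mfap4 and Mfap5 by 3.12 and 2.81; a further Mfap5 probe set gave 0.09 (adjusted p = 0.8). Sparc, a collagen-binding protein, rose by 2.06 and Col4a1, the main chain of basement membranes, by 1.18.

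Proteoglycans were less uniform, with 9 of 17 higher, 1 lower (Gpc1) and a median of 0.64. Fmod, which binds fibrils of collagen, had 287.2, 702.7 and 953.6 in remote tissue, against 9.1, 12.2 and 10.1 in sham tissue (log2 3.49). Bgn, a small proteoglycan of scar, rose by 2.20, while Dcn, its relative in resting matrix, stood at 0.05 and did not pass. Among 17 metalloproteases and inhibitors 9 rose, with a median of 0.90, or 0.56 without remote array nilv_670. Mmp12, a macrophage elastase, had 1194, 861.9 and 3407 in remote tissue, against 40.2, 10.9 and 71.0 in sham tissue. Timp1, an inhibitor of matrix proteases, rose by 3.40 and Mmp14, a membrane-bound collagenase, by 2.29.

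**Figure D2:**
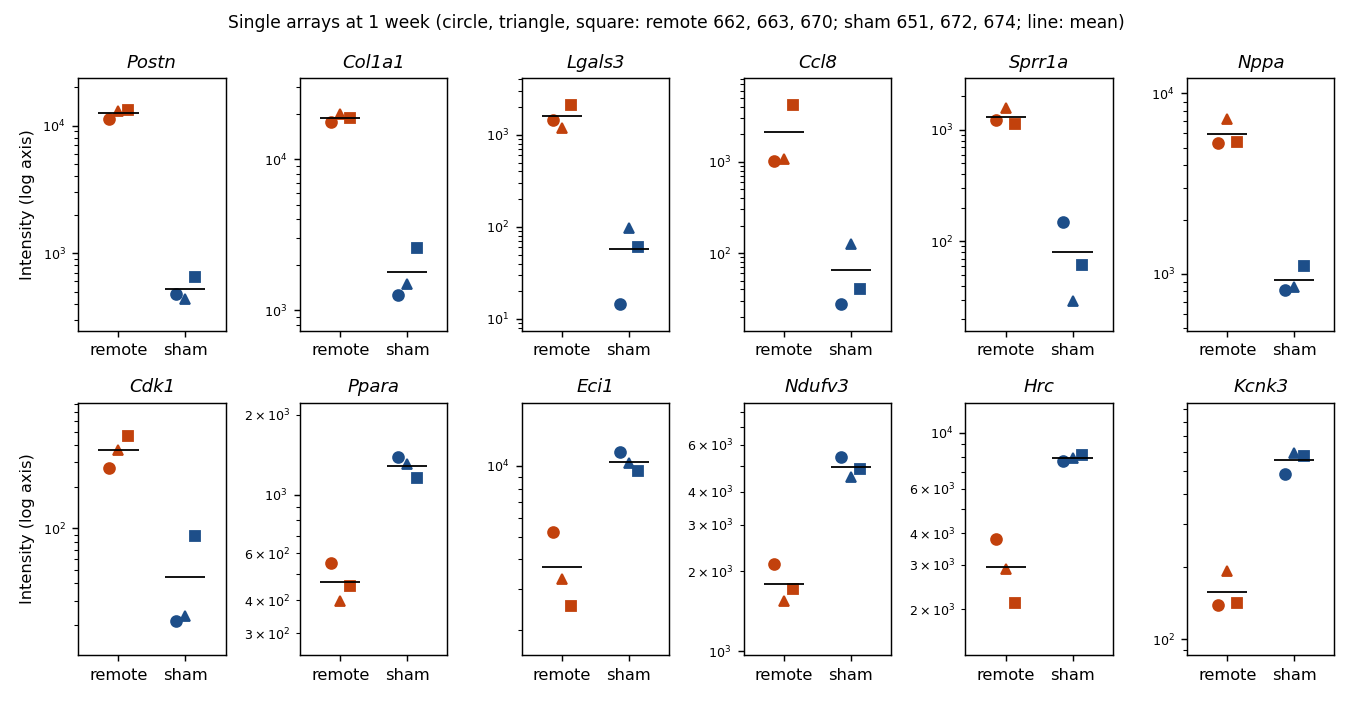
Intensities of 12 genes on the 3 remote arrays (left, red) and the 3 sham arrays (right, blue) at 1 week, on log axes, with the group mean as a line. For each gene the remote and sham arrays do not overlap, which is also so for 48.1% of all genes tested. The first 7 lie higher in remote tissue and the last 5 lower, and Ccl8 is highest on array nilv_670 with 4222.

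Signals that act on fibroblasts rose in part. Of 33 genes of the TGF-beta and activin pathway, 13 rose and 3 fell, with a median of 0.25; without remote array nilv_670 the count was 8 rises. All 3 measured ligands of the TGF-beta family itself rose. Tgfb3 averaged 1386 ± 82.9 in remote tissue and 536.0 ± 41.6 in sham tissue (log2 1.30, adjusted p = 0.00011). Tgfb2 rose by 1.29 and Tgfb1 by 1.17, but Tgfb1 did not pass without sham array lv_651, where it gave 0.83. Among receptors and mediators, Smad1, Acvr1 and Smad2 rose by 0.86, 0.52 and 0.32, and Acvr2a fell by 0.68. Tgfbr1, Smad7 and Smad4 stood at 0.35, -0.03 and -0.27 and did not pass. Of 17 secreted Wnt inhibitors and Frizzled receptors 6 rose, with a median of 0.39. Sfrp2, a secreted antagonist of Wnt ligands, had 1268, 1863 and 3309 in remote tissue, against 69.7, 113.9 and 138.6 in sham tissue (log2 3.76, SE 0.39). Dkk3 rose by 3.33, Frzb by 2.15 and Sfrp1 by 1.58. Igf1 showed how probe sets can part. Its brighter probe set gave 0.19 (adjusted p = 0.46) and another one gave 2.15 (adjusted p = 1.3e-05), so no direction is given for it.

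Macrophage genes rose almost without exception. Of 24 measured macrophage markers 23 rose, and the other one, Lyve1, stood at -0.08; the median was 1.56. Lgals3, the macrophage lectin galectin 3, had 1435, 1189 and 2131 in remote tissue, against 14.4, 98.2 and 60.9 in sham tissue (log2 4.03, SE 0.49, adjusted p = 2.8e-08). Cd68, a glycoprotein of macrophage lysosomes, averaged 1392 ± 315 in remote tissue and 285.0 ± 63.4 in sham tissue (log2 2.11). Adgre1, the F4/80 antigen of mouse macrophages, rose by 2.04 and Csf1r, the receptor for their growth factor, by 1.26. The summed signal of the 25 macrophage markers on the array was 35588, 36224 and 52712 in remote tissue, against 9205, 11987 and 12520 in sham tissue. Of these markers, 1 was below the filter level of 108.2 on all remote arrays and 9 were below it on all sham arrays.

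Lysosome genes went the same way, with 21 of 31 higher and a median of 0.88. Ctss, a protease used in antigen processing that is also on the macrophage list, averaged 7036 ± 1552 in remote tissue and 808.0 ± 96.7 in sham tissue (log2 3.04). The broadly expressed lysosomal genes Lamp1 and Psap stood at 0.07 and 0.12 and did not pass. Complement genes were higher in 11 of 14 cases and lower in 1 (Cd59a), with a median of 1.16. The C1q chains C1qa, C1qb and C1qc, which start the classical pathway, rose by 1.20, 1.26 and 1.30. C3ar1, a receptor for a complement fragment, rose by 2.09.

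Chemokines and cytokines were split, with 12 of 27 higher, 3 lower and a median of 0.63; 1 stayed lower without remote array nilv_670 or sham array lv_651, and the median was 0.36 without nilv_670. Ccl8, which draws in monocytes, had 1007, 1072 and 4222 in remote tissue, against 27.4, 125.4 and 40.9 in sham tissue (log2 4.06, SE 0.50, adjusted p = 3.9e-08). Cxcl13, a B cell attractant, had 366.6, 50 and 420.4 in remote tissue, against 6.4, 6.4 and 7.0 in sham tissue. The monocyte attractants Ccl9 and Ccl2 rose by 2.09 and 1.47. Il15, a cytokine of natural killer and muscle cells, had the largest fall of the list, with 86.7, 41.5 and 60.7 in remote tissue against 346.4, 327.8 and 354.6 in sham tissue (log2 -1.86, SE 0.28). Among 10 genes of MHC class II presentation 6 rose, with a median of 0.99, and 4 rose without remote array nilv_670 or sham array lv_651. The structural genes H2-Aa and H2-Ab1 rose by 1.41 and 1.36, while H2-Eb1, also structural, stood at 0.21 and did not pass. H2-Aa and H2-Ab1 were highest on array nilv_670, where H2-Aa had 4079 beside 1621 and 1629 on the other remote arrays. Of 31 interferon-induced genes 11 rose, and 7 without array nilv_670 or without sham array lv_672; the antiviral genes Ifit1 and Isg15 stood at 0.56 and 0.44 and did not pass.

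Of 18 glucocorticoid and acute phase genes 9 rose, 1 fell (Pdk4) and 8 did not pass, among them Lrg1 at 0.26 and Mt1 at 0.21; the median was 0.54. Saa3, an inducible serum amyloid A of fibroblasts and macrophages, had 2578, 1097 and 2552 in remote tissue, against 11.6, 76.3 and 21.1 in sham tissue (log2 4.68, SE 0.74, adjusted p = 3.5e-06). Hp, the haemoglobin scavenger haptoglobin, rose by 2.92 and Serpina3n, a protease inhibitor, by 2.53. Lcn2, an iron-carrier binding protein, rose by 2.41, while a further, dim probe set gave 0.30 (adjusted p = 0.27). Hmox1, which breaks down haem, averaged 3120 ± 239 in remote tissue and 776.0 ± 57.6 in sham tissue (log2 1.95). Beside 20.7% of all genes that rose and 17.7% that fell, the antioxidant list had 7 of 31 higher and 12 lower. Among those that fell were the mitochondrial enzymes Sod2 and Prdx3, by 1.11 and 0.90 on the log2 scale.

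Cell cycle genes formed a group that rose together, with 25 of 38 higher, the other 13 not passing, and a median of 0.78. Cdk1, the kinase that drives mitosis, had 275.1, 369.5 and 462.9 in remote tissue, against 21.2, 23 and 88.3 in sham tissue (log2 2.26, SE 0.38, adjusted p = 9.1e-06). Cks2, its small partner subunit, rose by 2.27, the mitotic kinesin Kif20a by 1.99, and the cyclins Ccna2 and Ccnb2 by 1.90 and 1.63. Mcm5 and Mcm2, subunits of the replicative helicase, rose by 0.91 and 0.82, and Rrm2, which helps supply nucleotides for DNA, by 1.21. The proliferation marker Mki67, the mitotic kinase Plk1 and the replication clamp Pcna stood at 0.43, 0.34 and 0.18 and did not pass. The arrays do not say which cells of the tissue carried these transcripts.

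The windows upstream of Cdk1 and Ccnb2 are printed because many genes of this group share a motif. They are the 250 bases before the transcript start in RefSeq, on GRCm38.p6, for Cdk1 at chr10:69352913-69353162 on the minus strand and for Ccnb2 at chr9:70421555-70421804 on the minus strand. Capitals mark the CCAAT box (CCAAT, or ATTGG when read on the other strand) and the GC box (GGGCGG, or CCGCCC).
Cdk1: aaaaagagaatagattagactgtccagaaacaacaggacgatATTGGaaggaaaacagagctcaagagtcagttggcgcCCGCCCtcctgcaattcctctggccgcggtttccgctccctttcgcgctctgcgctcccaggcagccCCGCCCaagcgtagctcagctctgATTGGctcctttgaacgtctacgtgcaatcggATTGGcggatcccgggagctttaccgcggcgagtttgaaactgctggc
Ccnb2: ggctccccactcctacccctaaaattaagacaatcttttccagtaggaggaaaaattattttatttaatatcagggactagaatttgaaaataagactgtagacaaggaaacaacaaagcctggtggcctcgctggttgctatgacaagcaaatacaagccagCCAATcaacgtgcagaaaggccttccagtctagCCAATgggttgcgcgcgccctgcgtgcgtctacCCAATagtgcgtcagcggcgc
Cdk1 holds 3 CCAAT boxes and 2 GC boxes, and Ccnb2 holds 3 CCAAT boxes. A window was found for 31 of the 38 cell cycle genes, and 24 of them (77.4%) held a CCAAT box on either strand. The same letters stand in 9314 of all 27025 windows searched (34.5%). The share was 4 of 15 (26.7%) for the fibrillar collagen list, 12 of 27 (44.4%) for fatty acid oxidation and 20 of 52 (38.5%) for oxidative phosphorylation. A GC box on either strand stood in 8901 of all windows (32.9%). Its share was 21 of 31 (67.7%) for the cell cycle list and 10 of 15 (66.7%) for the fibrillar collagen list. It was 15 of 27 (55.6%) for fatty acid oxidation and 20 of 52 (38.5%) for oxidative phosphorylation. A match is a description of the sequence and not a binding site.

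Both natriuretic peptide genes rose. Nppa, the atrial natriuretic peptide, which is re-expressed in stressed ventricle, had 5296, 7219 and 5347 in remote tissue, against 813.5, 847.5 and 1111 in sham tissue (log2 2.63, SE 0.31, adjusted p = 1.6e-08). Nppb, the brain natriuretic peptide, had 15391, 19392 and 15044 in remote tissue, against 4082, 6899 and 8567 in sham tissue (log2 1.40, SE 0.28, adjusted p = 0.00012). No remote array overlapped the sham arrays for either peptide, which was also so for 48.1% of all genes tested. Sprr1a, a stress-induced cross-bridging protein, had 1224, 1578 and 1131 in remote tissue, against 147.5, 29.0 and 61.7 in sham tissue (log2 3.54). Of the 26 genes of the natriuretic peptide and hypertrophy list 9 rose and 5 fell, with a median of 0.30; there were 5 rises without remote array nilv_663 and 3 falls without sham array lv_651, and the median was 0.19 without nilv_663. Over all genes 20.7% rose and 17.7% fell. Rcan1, which responds to calcineurin, rose by 1.02 and Fhl1, a stretch-linked LIM protein, by 1.26.

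Myosin heavy chains did not pass in either direction. Myh7, the slow beta chain that rises in many forms of rodent heart failure, had 18728, 21834 and 17026 in remote tissue, against 18041, 5772 and 5247 in sham tissue. Sham array lv_651 overlapped the remote arrays, and the difference was 1.22 (SE 0.51, adjusted p = 0.057). Without that array it was 1.79 and passed. Myh6 differed by -0.49 (SE 0.41, adjusted p = 0.37). Of 23 sarcomere genes 5 rose and 2 fell, with a median of -0.15, where 20.7% of all genes rose and 17.7% fell. The counts moved with single arrays, to 1 rise without remote array nilv_663 or sham array lv_674, 2 rises without remote array nilv_662 or sham array lv_672, and 0 falls by limma without remote array nilv_670. Under quantile normalization 2 rose and 2 fell. With only the remote and sham groups of 1 week in the fit, 4 rose and 4 fell. Acta1, the skeletal actin of fetal and stressed heart, differed by 0.61 and lost its call without remote array nilv_663 or nilv_670 or sham array lv_651 or lv_672, with values from 0.52 to 0.65.

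The windows upstream of Nppa and Col1a2 are shown as examples from the peptide and collagen groups. They lie at chr4:148000472-148000721 and chr6:4505368-4505617 on the plus strand of GRCm38.p6, again from RefSeq. Capitals mark the TATA box (TATAAA) of Nppa, and the GC boxes and the CCAAT box of Col1a2.
Nppa: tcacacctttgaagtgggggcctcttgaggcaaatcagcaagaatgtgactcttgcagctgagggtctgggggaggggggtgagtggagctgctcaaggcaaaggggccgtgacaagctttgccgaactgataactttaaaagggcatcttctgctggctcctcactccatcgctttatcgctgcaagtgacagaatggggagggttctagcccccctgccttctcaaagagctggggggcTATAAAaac
Col1a2: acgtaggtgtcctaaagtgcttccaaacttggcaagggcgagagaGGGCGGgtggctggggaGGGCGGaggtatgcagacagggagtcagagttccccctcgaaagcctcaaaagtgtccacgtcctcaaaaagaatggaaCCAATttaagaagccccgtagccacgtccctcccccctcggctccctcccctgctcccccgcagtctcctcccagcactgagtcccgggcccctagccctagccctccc
The TATA box of Nppa begins 9 bases before the annotated start, and the same letters on either strand are in 13% of all windows. The CCAAT box of Col1a2 begins 109 bases before the start. On either strand the letters CATTCC stand in 12.6% of all windows, the letters AGATAA in 10.3% and the letters TGANTCA in 6.87%. None of the 4 printed windows holds any of these.

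**Figure D3:**
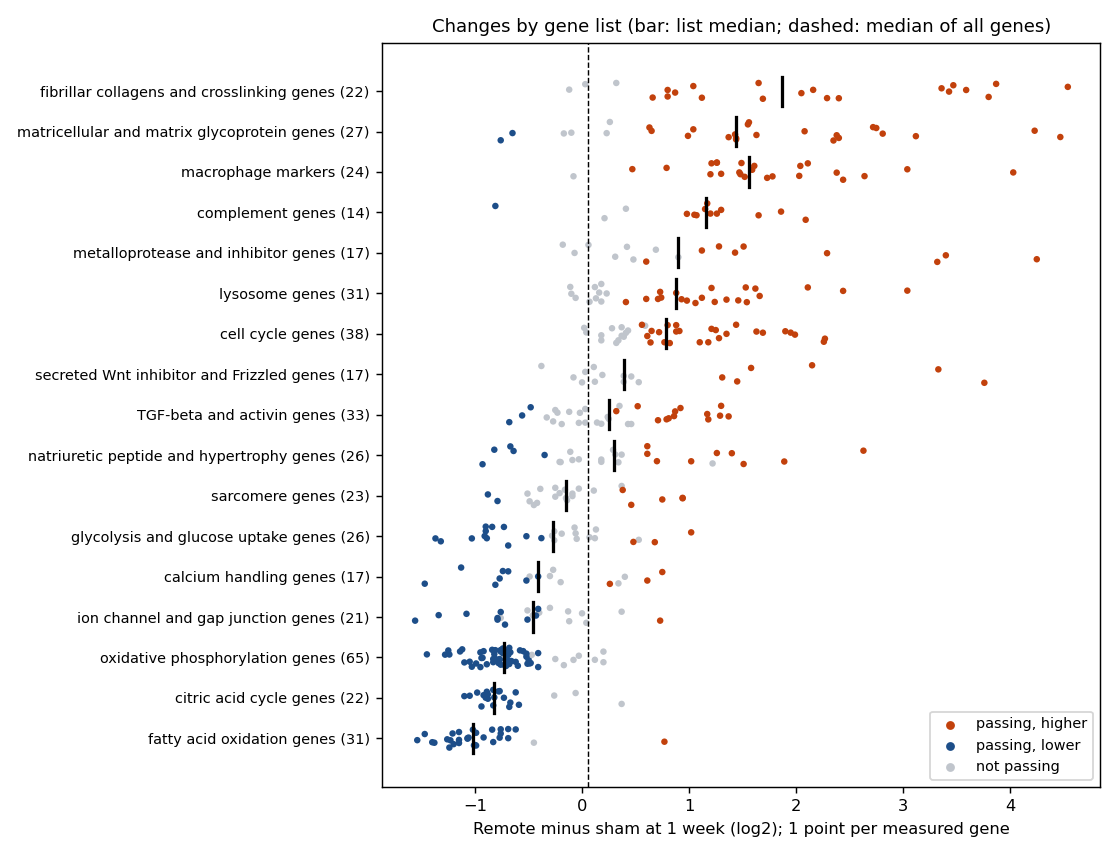
Remote minus sham at 1 week (log2) for every measured gene of 17 lists, with list sizes in brackets; red points rose, blue points fell and grey points did not pass. The black bar is the list median, from 1.87 for fibrillar collagens to -1.02 for fatty acid oxidation, and the dashed line is the median of all genes at 0.052.

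Mitochondrial metabolism was the main group that fell. Of 31 genes for fatty acid uptake and oxidation 29 fell and 1 rose, with a median of -1.02. Of 22 genes of the citric acid cycle 19 fell, with a median of -0.82, and of 65 genes for oxidative phosphorylation 57 fell, with a median of -0.73. In size these medians were below those of the fibrillar collagen and glycoprotein lists, at 1.87 and 1.44. They were above those of the basement membrane and proteoglycan lists, at 0.61 and 0.64. The mitochondrial lists share Sdha, Sdhb, Sdhc and Sdhd, the subunits of succinate dehydrogenase, which fell by 1.10, 0.67, 0.78 and 0.73 on the log2 scale. The summed cardiomyocyte markers were lower on the same arrays, and the part that cell makeup has in these falls was not tested.

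Eci1, an enzyme for the breakdown of unsaturated fatty acids, had 5256, 3306 and 2546 in remote tissue, against 11441, 10277 and 9503 in sham tissue (log2 -1.54, SE 0.22, adjusted p = 7.9e-07). Slc25a20, the carrier that brings acylcarnitine into mitochondria, averaged 2288 ± 714 in remote tissue and 5968 ± 958 in sham tissue (log2 -1.40). Ppara, the nuclear receptor that switches on these genes, had 550.1, 396.6 and 451.2 in remote tissue, against 1391, 1302 and 1159 in sham tissue (log2 -1.38, SE 0.21). Its coactivator Ppargc1a averaged 164.0 ± 25.9 in remote tissue and 372.0 ± 43.1 in sham tissue (log2 -1.0). The transporter Cd36 fell by 1.07 and Acadm, the medium-chain dehydrogenase, by 0.69. The gene that rose was Cpt1a, the liver form of the carnitine acyltransferase, by 0.77, which did not pass without remote array nilv_670, and Fabp3, the heart fatty acid binding protein, stood at -0.45 and did not pass. Pdk4, which turns glucose away from mitochondria, had 9577, 3738 and 4552 in remote tissue, against 14376, 10239 and 10288 in sham tissue; its fall of 1.06 did not pass without remote array nilv_663 or nilv_670 or sham array lv_651.

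Among respiratory chain subunits Ndufv3, of complex I, fell most, with 2132, 1547 and 1717 in remote tissue against 5420, 4549 and 4878 in sham tissue (log2 -1.45, SE 0.19, adjusted p = 1.2e-07). The muscle forms Cox7a1 and Cox8b of cytochrome oxidase fell by 1.24 and 1.14. The subunits of the list that did not pass ranged from 0.20 for Ndufa1 to -0.47 for Cox6a2. In the citric acid cycle Idh3a fell by 1.05 and Cs, citrate synthase, by 0.83, while the cytosolic enzyme Mdh1 stood at -0.06. Glycolysis was mixed, with 12 of 26 lower and 3 higher, and 7 lower without remote array nilv_670. Without remote array nilv_663 or nilv_670 or sham array lv_651, 1 gene was higher. Slc2a4, the insulin-regulated glucose carrier, fell by 1.32 and Pfkm, the muscle phosphofructokinase, by 0.84. Pfkp and Slc2a1, forms found in many other cells, rose by 1.02 and 0.68. Ckm, the muscle creatine kinase, fell by 1.37; a second, dim probe set gave 0.29 (adjusted p = 0.47).

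The largest falls were not all metabolic. Ces1d, a carboxylesterase, had 571.2, 160.9 and 228.7 in remote tissue, against 1773, 1531 and 1472 in sham tissue (log2 -2.32, SE 0.29, adjusted p = 6.6e-08). Efnb3, a membrane ligand of Eph receptors, fell by 1.90, and by 0.82 on its other probe set. Gstk1, a mitochondrial glutathione transferase, fell by 1.90 and Car14, a membrane carbonic anhydrase of muscle, by 1.74. Coq10a, involved in the handling of coenzyme Q, had 1747, 1947 and 1246 in remote tissue, against 5052, 5636 and 5076 in sham tissue (log2 -1.67). Dbt, of the complex that breaks down branched-chain amino acids, fell by 1.61. Fkbp4, an Hsp90 cochaperone, fell by 1.65 and by 1.75 on its other probe set.

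Excitation genes fell in part. Of 21 ion channel and gap junction genes 10 fell and 1 rose (Kcnk2), with a median of -0.46, and 6 fell without remote array nilv_670 or without sham array lv_672. Kcnk3, a background potassium channel, had 138.8, 192.1 and 141.6 in remote tissue, against 486.8, 594.7 and 576.1 in sham tissue (log2 -1.56, SE 0.26). Kcnd2, a subunit of the transient outward current, averaged 77.8 ± 22.3 in remote tissue and 214.0 ± 30.5 in sham tissue (log2 -1.08). The sulfonylurea receptor Abcc9 fell by 1.34. Gja1, or connexin 43, the main gap junction protein of ventricle, differed by -0.30 (adjusted p = 0.099), while its other probe set gave -0.64 (adjusted p = 0.043). Of 17 calcium handling genes 8 fell and 3 rose; without remote array nilv_670 the counts were 5 and 1, and without sham array lv_672 5 fell. Hrc, a calcium-binding protein of the sarcoplasmic reticulum, had 3796, 2876 and 2115 in remote tissue, against 7739, 7960 and 8181 in sham tissue (log2 -1.47, SE 0.22). Ryr2, its calcium release channel, fell by 0.81. Atp2a2, the calcium pump SERCA2, differed by -0.49 (adjusted p = 0.13).

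Smaller groups were mixed. Of 19 genes of the unfolded protein response 11 rose and 2 fell, but 5 rose without remote array nilv_670 and 7 without sham array lv_651. Pdia4 and Edem1, which fold and clear secretory proteins, rose by 0.82 and 0.76, while Hspa5, the main chaperone of that compartment, stood at -0.03 and did not pass. Of 16 heat shock genes 6 fell and 1 rose, with 3 falls without sham array lv_674; the mitochondrial chaperones Hspe1 and Hspa9 fell by 0.96 and 0.85. Of 23 VEGF and angiopoietin genes 5 rose and 7 fell, with a median of -0.01; over all genes 20.7% rose and 17.7% fell. The receptor Kdr and the ligand Vegfb fell by 0.91 and 0.99, and Vegfd rose by 1.31. Immediate early genes were higher in 12 of 25 cases, with a median of 0.49, and in 8 without remote array nilv_670. With only the remote and sham groups of 1 week in the fit, 7 were higher and 1 lower. Egr2 had 388.2, 586.8 and 424.8 in remote tissue, against 33.2, 57.6 and 53.6 in sham tissue. Egr1, Jun and Dusp1 stood at 0.42, 0.01 and 0.32 and did not pass. Adra1b, an adrenergic receptor of heart muscle, fell by 1.21 and Ace, which makes angiotensin II, rose by 0.92, while its other probe set gave 0.52 (adjusted p = 0.078). Of 26 cytosolic ribosomal protein genes 2 were higher, with 0 by limma without remote array nilv_670 or sham array lv_674 and 12 under quantile normalization.

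Markers of other cells moved beside these groups. The summed fibroblast and myofibroblast markers were 91368, 102591 and 109064 in remote tissue, against 37000, 37916 and 37350 in sham tissue. Most of this difference came from Postn, Col1a1, Col1a2 and Col3a1, the matrix genes already described. Of the 20 measured members of the list 13 rose and 1 fell. The fall was in Gsn, with 6284, 5341 and 5791 in remote tissue against 11429, 11640 and 10269 in sham tissue. Vim, Pdgfra and Ddr2, which resting fibroblasts also carry, stood at 0.12, 0.37 and 0.30 and did not pass. Epicardial and mesothelial markers rose in 6 of 7 cases, with sums of 1663, 842 and 2407 in remote tissue against at most 442 in sham tissue. Summed red blood cell markers were 16170, 10099 and 13461 in remote tissue, against 20105, 22803 and 21856 in sham tissue. The summed endothelial markers overlapped, at 18240, 17178 and 18673 in remote tissue against 18109, 19835 and 20332 in sham tissue. Atrial markers summed to between 7526 and 9276 in remote tissue and between 2445 and 2654 in sham tissue, mostly through Nppa. Of the 9 measured, 3 rose: Nppa, Dkk3 and Myl4, the atrial myosin light chain, which had 295.3, 251.9 and 216.6 in remote tissue against 157.6, 128.8 and 113.2 in sham tissue. A further, dim probe set of Myl4 gave 0.18 (adjusted p = 0.87). In the atrial list 2 rose without remote array nilv_662 or nilv_663 or sham array lv_672 or lv_674. Under quantile normalization 2 were higher and 2 lower. The defining atrial genes Myl7 and Bmp10 stayed at or below 68.2 on all 6 arrays, under the filter level of 108.2.

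Array nilv_670 carried further transcripts. Adipoq, made by fat cells, had 1178 on remote array nilv_670 and 268.5 and 161.9 on the other remote arrays, against 45.8 to 76.7 on sham arrays. The rest of the adipocyte list was divided on this array. Car3 had 931.8 there, against 282.5 and 107.6 on the other remote arrays and 11.7 to 90.8 on sham arrays. Scd1 and the dim Retn and Cidec were also highest on array nilv_670, while Cidea and Lpl were lowest there. Of 9 measured members of the list, 1 rose and 2 fell (Cidea and Lpl). The summed signal was 13076 on array nilv_670, of which Lpl gave 8568, against 17670 to 21728 on sham arrays. Igkv6-23, an immunoglobulin light chain segment, had 3576 on remote array nilv_670 and 1244 and 104.8 on the others, against 45.6 to 87.2 on sham arrays. The T cell gene Cd8b1, too dim elsewhere to be tested, had 347.7 on remote array nilv_670, 23.8 and 4.6 on the others, and 7.2 to 11.4 on sham arrays. The 4 B and plasma cell markers of 7 that rose all lost their call without array nilv_670 and 2 of them without sham array lv_672 (2 were higher under quantile normalization), and the 3 T and NK cell markers of 8 that rose came to 1 without array nilv_670 or sham array lv_674. The part that other tissue on this array has in any result was not tested. The matrix and macrophage counts were 17 of 22 fibrillar collagen genes and 23 of 24 macrophage markers higher without it, and 26 of 31 fatty acid oxidation genes lower.

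**Figure D4:**
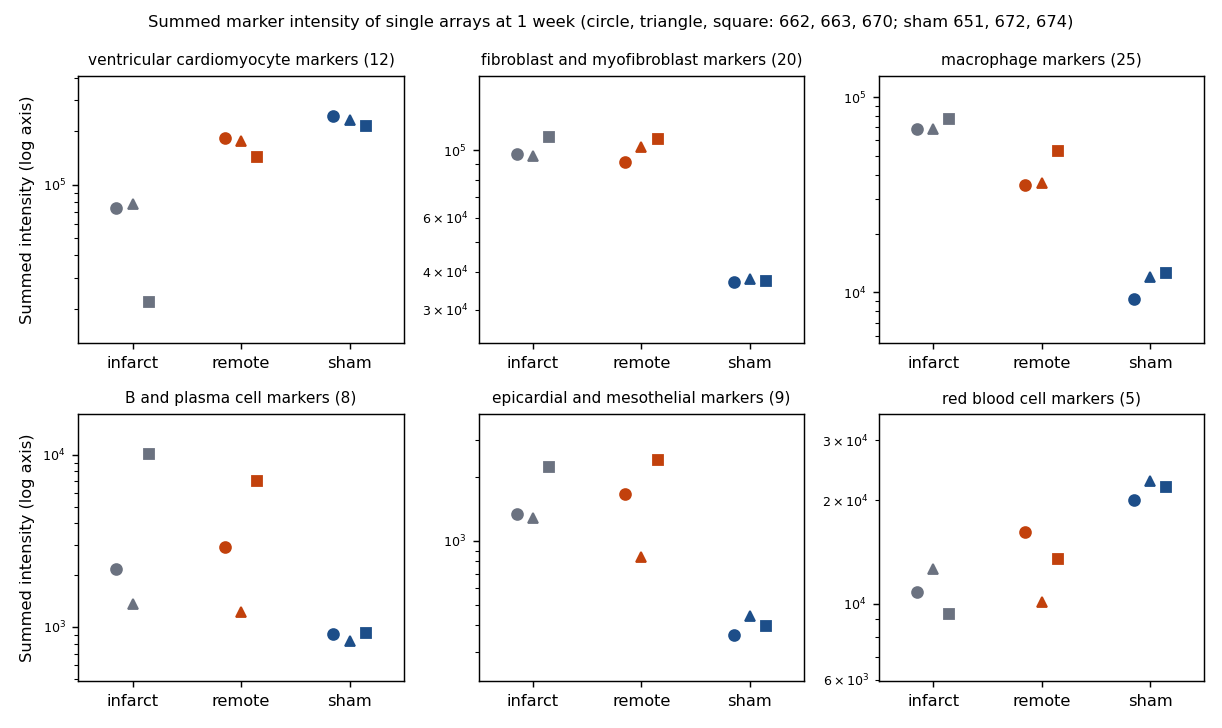
Summed intensities of 6 marker lists on single arrays at 1 week, on log axes, for infarct, remote and sham tissue, with the number of markers on the array in brackets. Fibroblast sums of remote tissue (91368 to 109064) reach those of infarct tissue, whereas ventricular cardiomyocyte sums of remote tissue (143971 to 183248) lie between those of infarct and sham tissue. The fibroblast sums include the bright matrix genes Postn, Col1a1, Col1a2 and Col3a1.

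The same remote arrays were set against the infarcted tissue of the same title numbers. Infarct tissue was higher than remote tissue for 1521 genes (22.8%) and lower for 1229 (18.4%), and under quantile normalization for 1353 and 1394. The remote arrays serve in both comparisons, so their differences are linked by construction. The genes that set infarct apart most were of macrophages and of heart muscle. Arg1, an arginine-using enzyme of wound macrophages, had 2397, 3376 and 1733 in infarct tissue, against 696.8, 74.6 and 370.4 in remote tissue (log2 2.88, SE 0.56, adjusted p = 5.9e-05). Clec4d, a myeloid lectin, averaged 1177 ± 236 in infarct tissue and 189.0 ± 117.0 in remote tissue (log2 2.47). Sgca, a sarcoglycan of the muscle membrane, had 331.6, 343.5 and 78.4 in infarct tissue, against 2500, 2097 and 1471 in remote tissue (log2 -2.94). Of the 24 macrophage markers 17 were higher in infarct than in remote tissue, and all 12 ventricular cardiomyocyte markers were lower.

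The main collagens did not follow that order. Col1a1 averaged 14786 in infarct tissue and 18782 in remote tissue, a difference of -0.34 (adjusted p = 0.44). Col3a1 averaged 11945 in infarct tissue and 13889 in remote tissue (log2 -0.21, adjusted p = 0.61), and Postn 11913 and 12477 in infarct and remote tissue (log2 -0.07, adjusted p = 0.86). These levels could not be told apart with 3 arrays each, which does not show that they were equal. Of the 22 fibrillar collagen genes 11 were higher in infarct tissue, among them Lox by 1.17 (adjusted p = 0.0098) and Col8a1 by 0.78 (adjusted p = 0.013). Nppb was lower in infarct tissue, at 8093 against 16609 in remote tissue (log2 -1.22, adjusted p = 0.0002). Fatty acid oxidation genes were lower in infarct tissue in 29 of 31 cases.

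The comparison of remote with sham tissue was then placed among the other times, each with its own 3 remote and 3 sham arrays. At 1 h, 368 genes were higher in remote tissue (5.52%) and 167 lower (2.5%). At 4 h, 95 were higher (1.42%) and 21 lower (0.315%). At 24 h, 196 were higher (2.94%) and 104 lower (1.56%). At 48 h, 298 were higher (4.47%) and 290 lower (4.35%). At 8 weeks, 8 were higher (0.12%) and 0 lower (0%) by limma, with 213 lower at an unadjusted p under 0.05. The counts were thus largest at 1 week, with 1379 and 1179.

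The difference between times was tested directly. The remote effect at 1 week was more positive than that at 48 h for 572 genes (8.58%) and more negative for 334 (5.01%); without remote array nilv_670 the total was 500. It was more positive than that at 8 weeks for 590 genes (8.85%) and more negative for 510 (7.65%), but under quantile normalization for 406 and 516. These tests use the 1 week arrays again and are no separate support for the differences at 1 week. Of the 22 fibrillar collagen genes 17 had a more positive effect at 1 week than at 48 h, and 16 than at 8 weeks. For the 24 macrophage markers the counts were 17 and 15, and for the 38 cell cycle genes 10 and 12. Of the 31 fatty acid oxidation genes 16 had a more negative effect at 1 week than at 48 h, and 13 than at 8 weeks.

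Postn averaged 1580 ± 665 in remote and 752.0 ± 232.0 in sham tissue at 48 h, and 3162 ± 1570 in remote and 679.0 ± 72.8 in sham tissue at 8 weeks. Its effect at 1 week exceeded that at 48 h by 3.48 (adjusted p = 1.6e-07) and that at 8 weeks by 2.43 (adjusted p = 8.6e-05), and it still passed at 8 weeks (log2 2.05). Col1a1 averaged 3964 ± 1842 in remote and 1484 ± 59.1 in sham tissue at 8 weeks, which did not pass (log2 1.30, adjusted p = 0.2). The remote level of Sprr1a, 142.0 ± 68.6 at 48 h and 149.0 ± 65.5 at 8 weeks, was near sham at both times (155.0 ± 30.3 and 188.0 ± 20.3). Nppa passed at 48 h (log2 1.18), 1 week and 8 weeks (log2 1.40). Nppb passed from 4 h to 1 week, with an effect at 1 week that did not differ from that at 48 h by the test (difference -0.29, SE 0.40, adjusted p = 0.69), and stood at 0.16 at 8 weeks. Lcn2 had its highest remote mean at 48 h, 4289 ± 699, and averaged 1148 ± 742 at 1 week. Pdk4 stood at 0.96 at 48 h (adjusted p = 0.09) and fell by 1.06 at 1 week, a difference of -2.02 (adjusted p = 0.007). Its sham level was 5789 ± 1409 at 48 h and 11634 ± 2374 at 1 week.

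**Figure D5:**
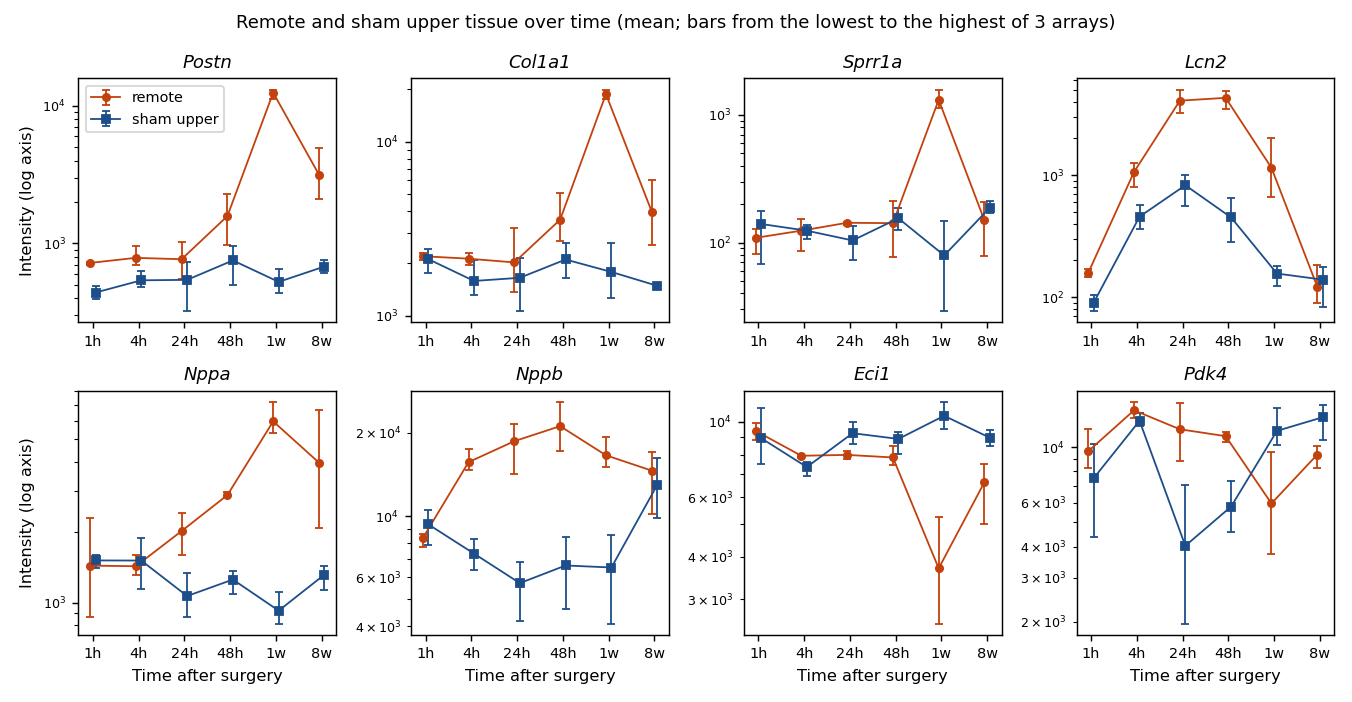
Mean intensities of 8 genes in remote (red) and sham upper tissue (blue) at 6 times after surgery, evenly spaced and not to scale, on log axes, with bars from the lowest to the highest of 3 arrays. Postn, Col1a1 and Sprr1a have their highest remote mean at 1 week, Lcn2 and Nppb at 48 h, and Eci1 has its lowest remote mean at 1 week.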

How the data were processed

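Per the labels, each Affymetrix array held total RNA from a piece of mouse ventricle. The authors deposited linear intensities that were already brought to a common level: the mean between the 2nd and 98th percentile was between 499.2 and 499.9 on every array. How this was done is not given in the sources used here. Of 12488 probe sets, 66 controls, 396 with several genes and 1193 with none were left out. The 10833 others covered 8251 genes, each represented by its probe set with the highest mean (2073 genes had several). Names come from the platform annotation, and a comparison with the RefSeq gene table changed 0 symbols. The 6670 genes that reached 108.2, the 40th percentile of the values, in 3 or more arrays were tested as log2(intensity + 45.6). The offset of 45.6 is 0.25 times the median of all values and shrinks the changes of dim genes.

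Tests used limma 3.58.1 in R 4.3.3, in 1 model of 23 groups over 59 arrays (36 residual and 4.43 prior degrees of freedom). The title number was a random replicate block (consensus correlation 0.148). Infarct and remote arrays of the same number deviated together from their group means (correlations 0.219, 0.262 and 0.418), so the numbers were taken to pair them. Remote and sham arrays share no number. P values were adjusted by Benjamini-Hochberg over all genes of a comparison. The median standard error for remote minus sham was 0.178. On simulated data with 50 changed genes of each size among 6670, the test of remote against sham at 1 week found 30% of the genes changed by a log2 value of 0.5. The share was 84% for a value of 1, 96% for 2 and 100% for 3, with 5 unchanged genes called. The number of arrays limits the precision.

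The lists hold 1265 genes in 51 lists, of which 888 were measured. The members and lists were chosen with earlier results of these data known. Named genes are the 14 largest rises and 12 largest falls among passing genes whose arrays do not overlap, up to 4 passing members of each list with the largest change, and the 4 largest rises and falls of each other test. A panel of 40 genes, of which 32 were measured, was named whatever its result. Other genes named beside a list count were chosen after their values were seen. For marker sums and quality ratios the test was an exact permutation of the 6 arrays, two-sided. Alternatives were other offsets, quantile normalization, no filter, every probe set, no block or a fixed block, fewer groups in the fit, sham upper and lower arrays together, and each array left out. Plots used matplotlib 3.10.9 in Python 3.11.15.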

Additional observations from a re-analysis of the deposited data

Results flagged for a closer look

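The difference between remote and sham tissue was not the same at every time. It differed between 1 week and 48 h for 906 genes and between 1 week and 8 weeks for 1100 genes, by the tests of the differences themselves.

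Against 48 h, the effect at 1 week was higher by 4.25 on the log2 scale for Ccl8, 4.15 for Sfrp2, 3.73 for Col11a1 and 3.69 for Sprr1a. For Ccl8, Sfrp2 and Sprr1a the effect at 48 h was itself between -0.39 and -0.15 and did not pass. The difference was -2.02 for Pdk4, -1.97 for Ucp3, -1.83 for Dsg2 and -1.80 for Agt. Dsg2, a desmosome protein, averaged 436.0 ± 152.0 in remote and 1057 ± 225 in sham tissue at 1 week, and 1072 ± 149 in remote and 683.0 ± 30.6 in sham tissue at 48 h (SD, n = 3 each). Agt, the angiotensin precursor, was below the filter level of 108.2 on all 6 arrays of 1 week.

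Against 8 weeks, the effect at 1 week was higher by 4.14 for Tnc, 3.95 for Lox, 3.86 for Sprr1a and 3.80 for Saa3. The difference was -1.79 for Isoc1, -1.75 for Polr3a, -1.68 for Dbt and -1.66 for Ces1d. In sham tissue Isoc1 averaged 1411 ± 138 at 1 week and 768.0 ± 59.3 at 8 weeks, and Polr3a averaged 172.0 ± 22.3 and 91.1 ± 88.2 at the same times. Polr3a did not pass at 1 week alone (log2 -0.79, limma adjusted p = 0.078). The cause of these differences was not tested.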

How the results depend on the processing

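Of 195 named genes that passed for remote against sham at 1 week, 152 kept their direction and call under every alternative run, 43 lost the call under at least 1, and 0 changed sign. Most calls were lost without remote array nilv_670 (26), with the 10 arrays of 1 week alone (20), and without sham array lv_651 or lv_672 (14 each). Igf1, which did not pass, changed sign to -0.02 with sham upper and lower arrays together; the cause was not tested. The total of 2558 genes ranged from 2056 (only the groups compared in the fit) to 2906 (every probe set), and from 2070 to 2359 without single arrays. With no replicate block it was again 2558 (1381 higher, 1177 lower). For the paired infarct and remote pieces, a fixed replicate block gave 2302 genes and no block 2484, against 2750. At least 2-fold calls followed the offset, with 256 higher and 93 lower at 1 times the median and 647 higher and 211 lower at 0.05 times. The 906 genes that differed between 1 week and 48 h came to 492 with only the groups compared in the fit, and to between 500 (without remote array nilv_670) and 984 without single arrays. Of 540 list counts compared, 31 moved by over 1.5 times. Under quantile normalization the split turned from 1521 higher and 1229 lower to 1353 and 1394 for infarct against remote, and from 590 and 510 to 406 and 516 for 1 week against 8 weeks. Genes that reached 108.2 on fewer than 3 of the 59 arrays were not tested.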
